A study of Mus musculus with 4 samples.

Results

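Claudins and their partner proteins at the tight junction were described in the small intestine of CF and WT mice, with and without lubiprostone. The members are 10 genes, namely Cldn2, Cldn3, Cldn4, Cldn7, Cldn8, Cldn15, Cldn23, Ocln, Tjp1 and F11r. They were chosen by gene symbol, as all the probe sets that the array's annotation gives for these names, which were 16 of the 45101 probe sets on the array. CF mice were Cftr null (the cftr-tm1Unc allele) and WT mice were their wild type littermates, both on the C57BL/6 background per the labels (C57BL/6J in the methods), and their age was not given in the sources used here. All mice, controls too, were kept from weaning on Peptamen, a liquid diet that prevents obstruction of the CF intestine. Treated mice were gavaged once a day with lubiprostone at 10 µg/kg in Peptamen for 2 weeks, while the controls are labelled as having no treatment. Lubiprostone is a prostaglandin derivative given for constipation, which promotes chloride and fluid secretion into the gut. RNA of the entire small intestine, trimmed of mesentery, was pooled in equal amounts from the mice of each group and 1 Affymetrix Mouse 430 2.0 array was used for each pool. The design text gives 8 mice for CF + lubiprostone, 10 for CF control, 7 for WT + lubiprostone and 10 for WT control, while the methods give a smaller number for WT control. With 1 array per group no spread between mice is known, no test of a gene was possible, and every difference below compares these pools, not the conditions.

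Tight junctions are the belts of protein strands that join neighbouring epithelial cells near the lumen. Claudins are 4-pass membrane proteins that form the strands and set which ions can pass between the cells. Some claudins build pores for small cations and water, others seal the gap, and in the mouse small intestine Cldn2 and Cldn15 are the main pore-forming members, by which sodium returns to the lumen for nutrient uptake. Ocln (occludin) lies in the same strands, F11r (junctional adhesion molecule A) is an adhesion molecule beside them, and Tjp1 (ZO-1) is the scaffold that ties the strands to the actin cytoskeleton.

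The results turn on the pore-forming pair, so their promoters are shown. The windows of 300 bases run from 250 bases before to 50 after the start site (RefSeq, GRCm38.p6, 5′ to 3′, plus strand for both genes). That of Cldn2 is chrX:139800558-139800857 and that of Cldn15 is chr5:136967619-136967918. Capitals mark TTTAT, the core of the motif bound by the CDX homeobox factors of the gut, or its reverse complement ATAAA.
Cldn2: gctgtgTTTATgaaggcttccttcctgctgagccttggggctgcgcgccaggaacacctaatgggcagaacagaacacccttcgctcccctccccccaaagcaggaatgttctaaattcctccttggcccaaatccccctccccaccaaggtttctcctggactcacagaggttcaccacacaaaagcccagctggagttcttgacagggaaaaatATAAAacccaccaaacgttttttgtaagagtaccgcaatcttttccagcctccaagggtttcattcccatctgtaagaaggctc
Cldn15: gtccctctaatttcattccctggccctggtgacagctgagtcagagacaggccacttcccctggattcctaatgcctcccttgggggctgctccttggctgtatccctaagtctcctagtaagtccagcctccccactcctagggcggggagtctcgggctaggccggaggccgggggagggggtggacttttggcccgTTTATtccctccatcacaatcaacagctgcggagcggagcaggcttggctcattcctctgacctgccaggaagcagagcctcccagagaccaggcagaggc
Cldn2 held 2 matches, TTTAT beginning at position -244 and ATAAA at position -34 from the start site, the second of which lies within TATAAA, the TATA box motif. Cldn15 held 1, TTTAT at position -51. Both strands were searched and TTTAT or ATAAA was present in 40.0% of 32851 promoter windows of this length, so that 3 of 8 members with a window (Cldn2, Cldn15 and Tjp1) is near that share. TATAAA or its reverse complement was in 13.6% of windows and in 1 member, Cldn2, and GATAA (the GATA factor core) or its reverse complement TTATC was in 25.4% of windows and in 1 member, Tjp1. These are matches of letters, and no binding was measured.

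Each value is a signal, the intensity of a probe set in arbitrary units, after the study had scaled the arrays to the same mean (500.0 without the extreme values). Array medians were 119.6 in CF + lubiprostone, 109 in CF control, 123 in WT + lubiprostone and 124 in WT control. A probe set was kept when it reached its own array's median on at least 1 array, which 14 probe sets of 9 members did, and all 14 lay at or above the 75th percentile on all 4 arrays. Across the array 12259 genes were kept. The log2 ratios of a gene's kept probe sets were averaged. Genes with a kept probe set at or above the 75th percentile on 1 of the 2 arrays compared are called bright genes. Where a gene had more than 1 bright probe set, their log2 ratios had an SD with a median of 0.15 in CF control over WT control, 0.16 in CF + lubiprostone over CF control, 0.12 in WT + lubiprostone over WT control and, for CF + lubiprostone over WT + lubiprostone, 0.14. This spread within arrays is the one error known for these values. The arrays are shared between the comparisons, so their values are given side by side. Cftr checks the genotype labels, with a signal of 715 in CF + lubiprostone and 620.2 in CF control, against 2226 in WT + lubiprostone and 2505 in WT control.

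**Figure D1:**
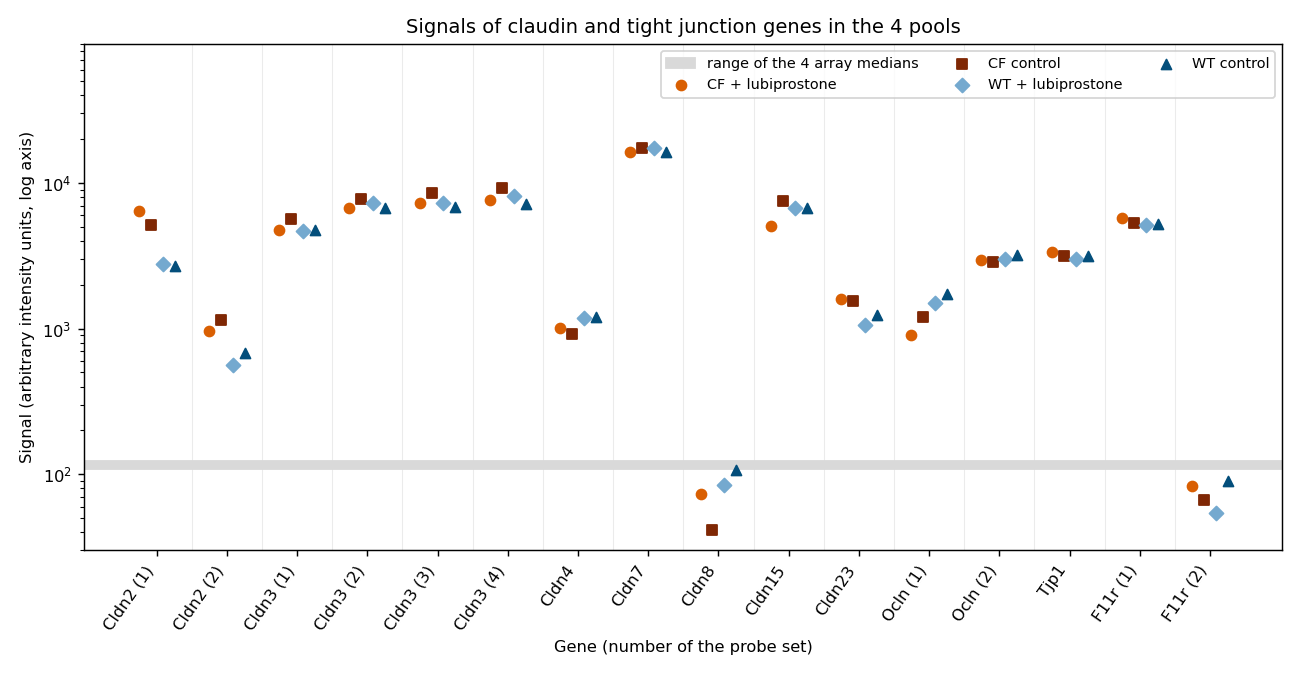
Signals of the 16 probe sets (arbitrary intensity units, log axis), 1 point for each of the 4 pools, with the range of the 4 array medians as a grey band. Both Cldn2 probe sets lie higher in both CF pools than in both WT pools, while Cldn8 and the second F11r probe set lie below the array medians.

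Cldn2, which forms a channel for sodium and water and is most abundant in crypts, showed the widest range of the 9 measured members. Its first probe set (1417231_at) had a signal of 6439 in CF + lubiprostone, 5144 in CF control, 2778 in WT + lubiprostone and 2669 in WT control. The second (1417232_at) had 969 in CF + lubiprostone, 1154 in CF control, 559 in WT + lubiprostone and 679 in WT control. In both probe sets both CF pools lay above both WT pools, and the groups by genotype did not overlap. Such an order is common in these data, since 25.2% of 7411 genes bright on at least 1 array had both CF pools above both WT pools and 24.4% had both below. Of the 9 measured members 4 (Cldn2, Cldn23, Tjp1 and F11r) were in the first class and 2 (Cldn4 and Ocln) in the second, and with quantile normalization the first class held Cldn2 and Cldn23 and the second Cldn4, Cldn7 and Ocln. CF control was 1.81-fold greater than WT control (log2 ratio 0.86, probe sets 0.95 and 0.76). Of 7149 bright genes in this comparison 202, or 2.83%, had a higher ratio. Among lubiprostone treated mice the CF pool was 2.004-fold greater than the WT pool (log2 ratio 1.003, probe sets 1.21 and 0.79), and 160 (2.25%) of 7106 bright genes had a higher ratio.

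Within a genotype the Cldn2 pools lay close together. CF + lubiprostone over CF control had a log2 ratio of 0.04, with the probe sets on either side of 0 (0.32 and -0.25), and WT + lubiprostone over WT control one of -0.11 (probe sets 0.06 and -0.28). The order of the pools for the gene was CF + lubiprostone, CF control, WT control and WT + lubiprostone. Its middle step of 0.86 exceeded the spread between probe sets, and the outer steps of 0.04 and 0.11 did not. Cldn2 lies on the X chromosome (X:139800808-139811386 in GRCm38.p6), and the pools differ in Xist, the RNA of the inactive X, which was looked at after the values were seen. Xist (1427262_at) had a signal of 4062 in CF + lubiprostone, 2510 (2509.9) in CF control, 3683 in WT + lubiprostone and 1036 in WT control. The Y chromosome gene Eif2s3y (1417210_at) had a signal of 805 in CF + lubiprostone, 884 in CF control, 829 in WT + lubiprostone and 1242 in WT control. The part of Xist, or of the mix of sexes in the pools, in the Cldn2 values was not tested. Fewer cells of a type and less RNA per cell cannot be told apart in these whole tissue pools. Markers of crypts and proliferation, where Cldn2 is normally abundant, summed to 14634 in CF + lubiprostone, 23148 in CF control, 21280.1 in WT + lubiprostone and 22463 in WT control, most of it from Olfm4. In CF control over WT control 3 of these markers were above 0 and 4 below, with a median log2 ratio of -0.03. In CF + lubiprostone over WT + lubiprostone 1 was above 0 and 6 below, with a median of -0.52. Epithelial markers summed to 228456 in CF + lubiprostone, 226459 in CF control, 215349 in WT + lubiprostone and 199779 in WT control, a ratio of 1.13 for CF control over WT control. The part of these cells in the Cldn2 values was not tested.

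Cldn15, the other pore-forming claudin, had its low value in the treated CF pool. Its probe set (1418920_at) had a signal of 5071 in CF + lubiprostone, 7516 in CF control, 6701 in WT + lubiprostone and 6741 in WT control. CF + lubiprostone was 1.48-fold less than CF control (log2 ratio -0.57), and 331 of 7112 bright genes had a lower ratio. It was 1.32-fold less than WT + lubiprostone (log2 ratio -0.40), with 819 of 7106 bright genes lower. The other 3 pools lay closer together, with CF control 1.11-fold greater than WT control (log2 ratio 0.16) and WT + lubiprostone at -0.01 to WT control. The step from these 3 pools down to the treated CF pool was larger than the within-array SD given above. Lists of some other cells were also low in that pool against CF control. The 7 measured crypt and proliferation markers had a median log2 ratio of -0.40 with 6 of 7 below 0, and the 6 smooth muscle markers one of -0.51 with all 6 below 0. The smooth muscle sum of that pool (25952) lay near that of WT control (25255). The epithelial list, with 6 of 8 above 0, had a median of 0.02 (-0.11 with the arrays scaled to the same median). The villus enterocyte list went the other way, with 7 of 8 above 0 and a median of 0.27. The part of these cells in the Cldn15 values was not tested. Cldn15 lies at chr5:136967869-136975845 in GRCm38.p6.

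Set against each other, the pore-forming genes had a Cldn2 ratio larger than the Cldn15 ratio by 1.62 times in CF control over WT control, and by 1.52 times for CF + lubiprostone over CF control. Between the WT pools this quotient was 0.93. In CF + lubiprostone over WT + lubiprostone, which holds both steps, it was 2.65.

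Cldn3, a sealing claudin spread along the whole epithelium, was measured by 4 probe sets. The first (1426332_a_at) had a signal of 4765 in CF + lubiprostone, 5618 in CF control, 4653 in WT + lubiprostone and 4763 in WT control. The fourth (1460569_x_at, whose suffix marks probes that may match other sequences) had 7622 in CF + lubiprostone, 9164 in CF control, 8185 in WT + lubiprostone and 7196 in WT control. CF control was the highest pool in all 4 probe sets. It was 1.21-fold greater than WT control (log2 ratio 0.28, probe sets 0.20 to 0.35), and CF + lubiprostone was 1.17-fold less than CF control (log2 ratio -0.23, probe sets -0.20 to -0.27). The log2 ratio was 0.09 for WT + lubiprostone over WT control and -0.04 for CF + lubiprostone over WT + lubiprostone, both within the spread between probe sets.

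Cldn4, also counted among the sealing claudins, is the neighbour of Cldn3 on chromosome 5 (134945123-134946934 for Cldn4 and 134986214-134987476 for Cldn3). The 2 genes had opposite signs in CF control over WT control, while both lay below 0 in CF + lubiprostone over WT + lubiprostone. The Cldn4 probe set (1418283_at) had a signal of 1005 in CF + lubiprostone, 918 in CF control, 1174 in WT + lubiprostone and 1207 in WT control. Both CF pools lay below both WT pools. CF control was 1.31-fold less than WT control (log2 ratio -0.39), the lowest ratio of the 9 measured members in that comparison, with 1044 of 7149 bright genes lower. The log2 ratio was 0.13 for CF + lubiprostone over CF control, -0.04 for WT + lubiprostone over WT control and -0.22 for CF + lubiprostone over WT + lubiprostone.

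Cldn7, a claudin of the lateral membrane that also supports adhesion to the matrix, had the narrowest range of the 9 measured members. Its signal (1448393_at) was 16338 in CF + lubiprostone, 17392 in CF control, 17299 in WT + lubiprostone and 16223 in WT control, a log2 range of 0.10 in all. No step between its pools exceeded the spread between probe sets.

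Cldn23, a claudin of differentiated intestinal epithelium, had the same order of pools as Cldn2, an order that Tjp1 and F11r shared. Against Cldn2, Cldn23 had a smaller step between the CF and WT pools (0.34) and a larger one within WT. Its signal (1424409_at) was 1608 in CF + lubiprostone, 1554 in CF control, 1053 in WT + lubiprostone and 1232 in WT control. CF control was 1.26-fold greater than WT control (log2 ratio 0.34), and CF + lubiprostone was 1.53-fold greater than WT + lubiprostone (log2 ratio 0.61), with 388 (5.46%) of 7106 bright genes higher. The log2 ratio was 0.05 for CF + lubiprostone over CF control and -0.23 for WT + lubiprostone over WT control, so the WT step adds to the difference between the treated pools.

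Cldn8, a sealing claudin best known from the distal nephron and the colon, was not kept. Its signal (1449091_at) was 73.1 in CF + lubiprostone, 41.3 in CF control, 84.7 in WT + lubiprostone and 108 in WT control, below the array's median in every pool, and no ratio is given.

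Ocln was measured by probe sets that shared a genotype order and differed in the size of the step. The first (1440220_at) had a signal of 908 in CF + lubiprostone, 1209 in CF control, 1490.3 in WT + lubiprostone and 1739.8 in WT control. The second (1448873_at) had 2973 in CF + lubiprostone, 2876 in CF control, 3007 in WT + lubiprostone and 3185 in WT control. In both, both CF pools lay below both WT pools. For CF control over WT control the log2 ratios were -0.52 and -0.15, and for CF + lubiprostone over WT + lubiprostone they were -0.71 and -0.02. The gene's mean was 1.26-fold less in CF control than in WT control (log2 ratio -0.34), 1.29-fold less in CF + lubiprostone than in WT + lubiprostone (log2 ratio -0.37), -0.18 for CF + lubiprostone over CF control and -0.15 for WT + lubiprostone over WT control on the log2 scale. The first 2 rest mainly on 1 probe set. For CF + lubiprostone over CF control the probe sets lay on either side of 0 (-0.41 and 0.05).

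Tjp1 and F11r differed little between pools. Tjp1 (1417749_a_at) had a signal of 3355 in CF + lubiprostone, 3158 in CF control, 3015 in WT + lubiprostone and 3156 in WT control. F11r (1424595_at) had 5781 in CF + lubiprostone, 5338 in CF control, 5179 in WT + lubiprostone and 5201 in WT control. Tjp1 had log2 ratios of 0.00 for CF control over WT control, 0.09 for CF + lubiprostone over CF control, -0.07 for WT + lubiprostone over WT control and 0.15 for CF + lubiprostone over WT + lubiprostone. Those of F11r were 0.04 for CF control over WT control, 0.11 for CF + lubiprostone over CF control, -0.01 for WT + lubiprostone over WT control and 0.16 for CF + lubiprostone over WT + lubiprostone. Both had the same order, with CF + lubiprostone highest and WT + lubiprostone lowest, with every step between neighbours within the SD of probe sets. The second F11r probe set (1436374_x_at) was not kept, with signals between 54.2 and 89.6.

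**Figure D2:**
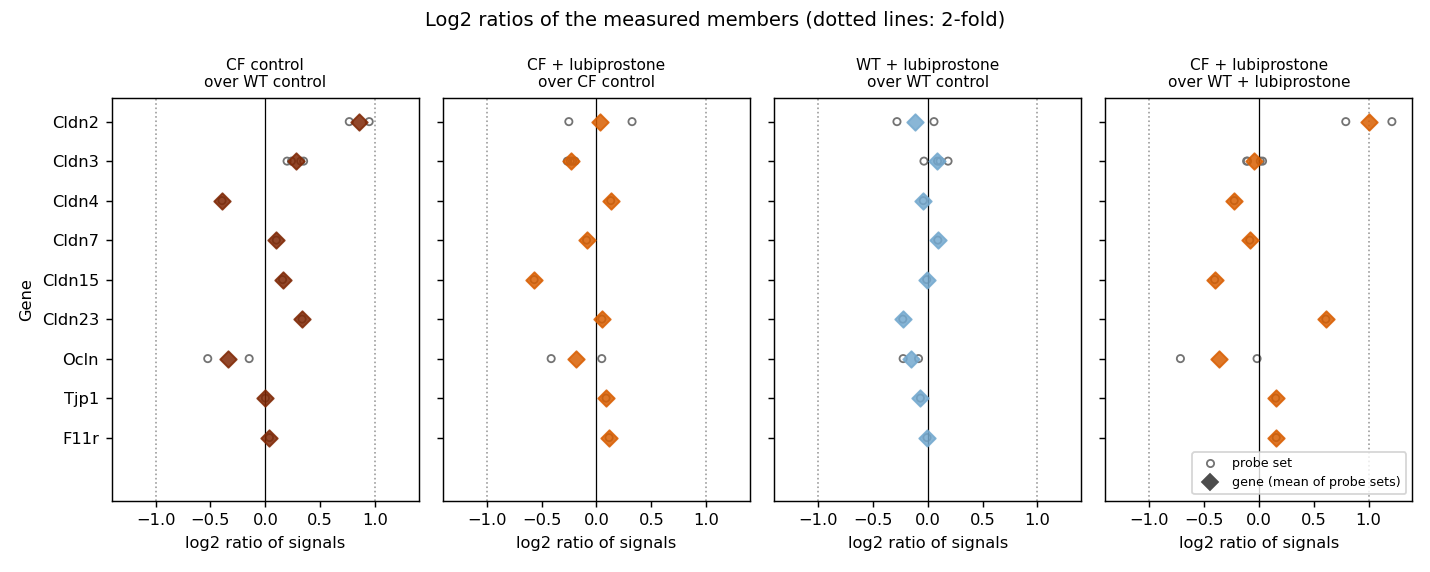
Log2 ratios of the 9 measured members in the 4 comparisons, with the gene's mean as a filled diamond, its kept probe sets as open circles and dotted lines at 2-fold. Cldn2 stands at 0.86 in CF control over WT control and at 1.003 in CF + lubiprostone over WT + lubiprostone, Cldn15 stands at -0.57 in CF + lubiprostone over CF control, and in the WT comparison the gene means reach no further than -0.23, with 1 Cldn2 probe set at -0.28.

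Counted over the 9 measured members, few passed a fold threshold. In CF control over WT control none was 2-fold different, where 7.64% of 11806 genes counted were, and none was 3-fold different, where 2.98% were. At 1.5-fold among bright genes 1 member, Cldn2, was higher, against 14.4% of bright genes called either way. In CF + lubiprostone over CF control no member passed 2-fold, 3-fold or 1.5-fold, where 5.36%, 1.68% and 9.52% of genes did, and Cldn15 with 1.48 lay just short of the last. In WT + lubiprostone over WT control no member passed 2-fold, 3-fold or 1.5-fold, where 2.77%, 1.06% and 3.35% did. In CF + lubiprostone over WT + lubiprostone Cldn2 lay at the 2-fold threshold, so 1 of 9 was counted against 6.63% of genes. None was 3-fold different there against 2.52%, and 2 (Cldn2 and Cldn23) were 1.5-fold higher against 12.1% of bright genes. With 9 genes a single call is a larger share than most of these backgrounds, and nothing is read from the counts beyond the genes named.

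The median log2 ratio of the members was 0.10 in CF control over WT control, with 7 above 0 and 2 below, against a median of -0.02 over all genes counted, though with quantile normalization it was -0.01. It was 0.04 in CF + lubiprostone over CF control, with 5 above 0 (-0.09 with the arrays scaled to the same median, which moved the median of all genes to -0.12), -0.04 in WT + lubiprostone over WT control, with 2 above 0, and -0.04 in CF + lubiprostone over WT + lubiprostone, with 4 above 0, where the medians of all genes were 0.01, 0.00 and 0.00. In size, without regard to sign, the members' median log2 ratio was 0.28 in CF control over WT control against 0.24 for bright genes, and 0.11 in CF + lubiprostone over CF control against 0.21. It was 0.09 in WT + lubiprostone over WT control against 0.14, and 0.22 in CF + lubiprostone over WT + lubiprostone against 0.20. The signs of Cldn7, Tjp1 and F11r in CF control over WT control changed in some of the settings tried, as did those of Cldn2, Cldn23, Ocln, Tjp1 and F11r in CF + lubiprostone over CF control and of Cldn2, Cldn15 and F11r in WT + lubiprostone over WT control.

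The wider junction was looked at through 79 other genes of claudins, tricellular proteins, adhesion molecules, scaffolds, polarity complexes, junction regulators, adherens junctions and desmosomes. With the arrays as deposited, 7.64% of all genes counted passed 2-fold in CF control over WT control. The share was 5.36% for CF + lubiprostone over CF control. It was 2.77% between the WT pools and 6.63% between the treated pools. Of the 79 junction genes, 64 or 65 could be counted in each comparison, and none was 2-fold higher or lower in any of the 4. Their medians were -0.03 in CF control over WT control (31 above 0, 33 below), 0.00 in CF + lubiprostone over CF control (31 above, 33 below), 0.00 in WT + lubiprostone over WT control (33 above, 32 below) and 0.06 in CF + lubiprostone over WT + lubiprostone (36 above, 29 below). With the arrays scaled to the same median, which moved the median of all genes to 0.16 in CF control over WT control, 48 of the 64 were above 0 there, while 20 of the 64 were above 0 in CF + lubiprostone over CF control, and with either other scaling none passed 2-fold.

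Among other claudins, 14 names were found on the array and 4 were kept. The brightest was Cldn12, a widely expressed claudin, with a mean signal of 1988 in CF + lubiprostone, 2156 in CF control, 1508 in WT + lubiprostone and 1505 in WT control. Its log2 ratio for CF control over WT control was 0.52. Igsf5 (junctional adhesion molecule 4) had 3626 in CF + lubiprostone, 3883 in CF control, 2793 in WT + lubiprostone and 2483 in WT control, a log2 ratio of 0.64 for CF control over WT control. In both genes, as in Cldn2, both CF pools lay above both WT pools, which held for 18 of 51 bright junction genes outside the members, with 14 of 51 the other way. Of all bright genes 25.2% lay above in this way and 24.4% below. With quantile normalization the junction counts were 15 and 13, against 26% and 23.9% of bright genes. With the arrays scaled to the same median they were 23 and 5, against 37% and 15.7%. Among the dim claudins that were kept, Cldn22 had 90.1 in CF + lubiprostone, 119 in CF control, 171 in WT + lubiprostone and 193 in WT control. Its value in CF + lubiprostone was below the array's median. Cldn34c1 had 68.2 in CF + lubiprostone, 62.2 in CF control, 127 in WT + lubiprostone and 80.2 in WT control. It reached the array's median in WT + lubiprostone only, and no order by genotype is read from such low signals. Lsr, the angulin that marks tricellular corners, had 2053 in CF + lubiprostone, 2433 in CF control, 2435 in WT + lubiprostone and 2228 in WT control.

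The brightest scaffold gene was Ybx3 (ZONAB, a partner of ZO-1 that also binds DNA), with 3469 in CF + lubiprostone, 4142 in CF control, 3178 in WT + lubiprostone and 2959 in WT control, and a log2 ratio of 0.49 for CF control over WT control. The brightest polarity gene, Mpp5 (Pals1), had log2 ratios between -0.17 and -0.08 in the 4 comparisons. Epcam, an adhesion protein that binds Cldn7 and protects it from breakdown, had 6734 in CF + lubiprostone, 5789.9 in CF control, 5663 in WT + lubiprostone and 6198 in WT control, and Cdh1 (E-cadherin) had 19128 in CF + lubiprostone, 18599 in CF control, 16346 in WT + lubiprostone and 15480 (15479.7) in WT control. All 7 desmosome genes were above 0 in CF control over WT control, with a median of 0.26 (6 of 7 with quantile normalization). Of bright genes 51.3% were above 0 there, and Dsp, Dsg2 and Pkp2 had probe sets on either side of 0. All 7 were below 0 in CF + lubiprostone over CF control, where 48.6% of bright genes were above 0. The median there was -0.06, within the spread between probe sets (0.16). The brightest desmosome gene, Dsp (desmoplakin), had 3659.7 in CF + lubiprostone, 4813 in CF control, 4291 in WT + lubiprostone and 4745 in WT control.

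**Figure D3:**
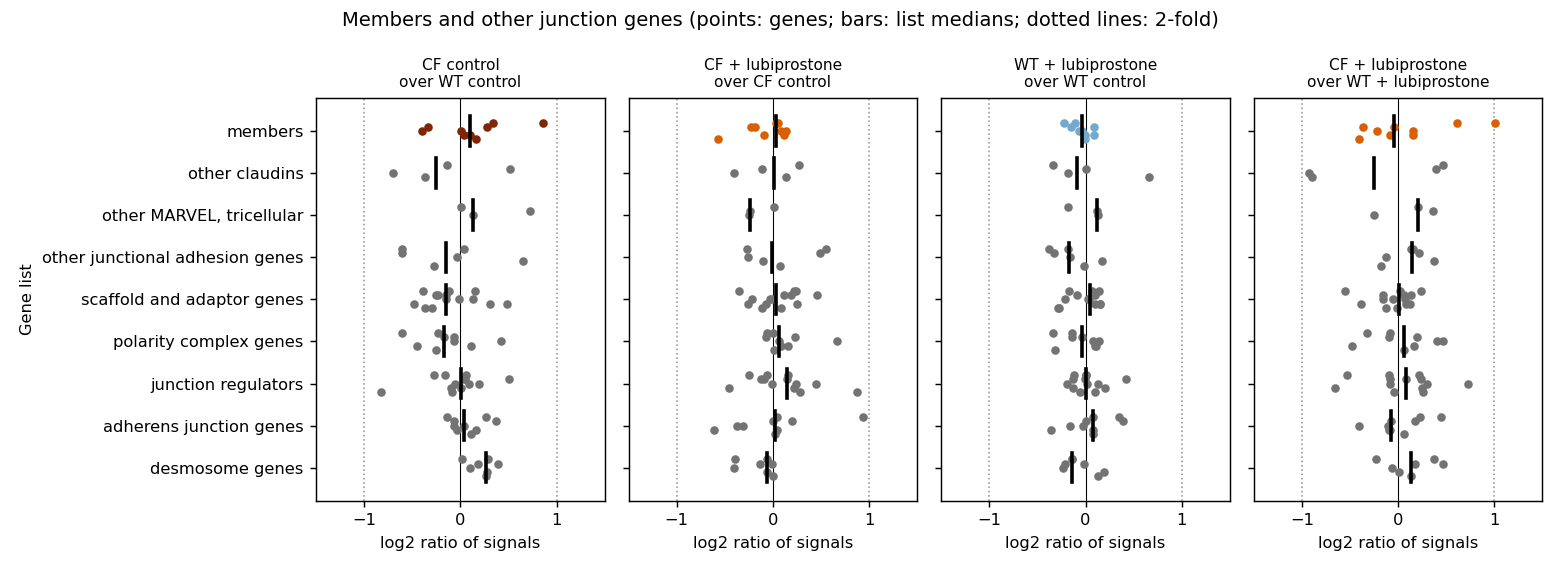
Log2 ratios of the members (coloured points, top row) and of other junction genes by list (grey points), with the median of each list as a black bar and dotted lines at 2-fold. No other junction gene lies beyond 2-fold, where 2.77% to 7.64% of all genes counted do, depending on the comparison. All 7 desmosome genes lie above 0 in CF control over WT control (6 of 7 with quantile normalization), as do 51.3% of bright genes.

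Of 11 transcription factors known to act on claudin genes, 10 were matched. The brightest, Klf4, a factor of differentiated epithelium, had 7127 in CF + lubiprostone, 5729 in CF control, 5927 in WT + lubiprostone and 4929 in WT control. Cdx2, the CDX factor of the small intestine, can activate the claudin-2 promoter in human cell lines, and it was looked at after its values were seen. Its mean signal was 681 in CF + lubiprostone, 511 in CF control, 995 in WT + lubiprostone and 972 in WT control. Both CF pools lay below both WT pools, opposite to Cldn2, with a log2 ratio of -0.93 for CF control over WT control and -0.55 for CF + lubiprostone over WT + lubiprostone. The claudin repressors Snai1 and Snai2 passed 2-fold at low signals. Snai1 was lower in CF control over WT control (log2 ratio -1.14) and in CF + lubiprostone over WT + lubiprostone (-1.13). The first call was lost with the arrays scaled to the same median and with quantile normalization. Snai2 was higher in CF control over WT control (1.43) and lower in CF + lubiprostone over CF control (-1.01). Of all genes counted, 7.64%, 6.63% and 5.36% passed 2-fold in these comparisons, in the order first named. Snai1 had 64.2 in CF + lubiprostone, 56.9 in CF control, 141 in WT + lubiprostone and 125 in WT control, with the CF values below the array medians. Snai2 had 126 in CF + lubiprostone, 254 in CF control, 104 in WT + lubiprostone and 94.0 in WT control, with the WT values below the array medians. CF control thus stood apart from the other 3 pools.

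Over 7410 bright genes and the 4 arrays, the gene whose pattern lay nearest to Cldn2 was Ccn2, with a distance of 0.06 (Euclidean, over log2 signals centred on the mean of each gene). Ccn2 had 632 in CF + lubiprostone, 619 in CF control, 333 in WT + lubiprostone and 348 in WT control. Col6a4 and Fry followed at 0.12 and 0.13, and 14 genes lay within 0.2. For Cldn23 the nearest were Ttc37, Skap2 and Cox18, with 130 genes within 0.2, and for Cldn15 they were Mta2, Rsu1 and Zfx, with 229 genes within 0.2. Over 4 arrays many genes share a pattern, and the names are given as a description.

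The labelled tissue was checked against markers. All 8 epithelial markers were kept, and villus enterocyte markers were abundant in every pool, with summed signals of 473935 in CF + lubiprostone, 415493 in CF control, 519462 in WT + lubiprostone and 484169 in WT control. All 8 of these were below 0 in the log2 ratio of CF control over WT control, and 4 of 8 with the arrays scaled to the same median. Of other tissues, colon markers summed to 30053 in CF + lubiprostone, 30638 in CF control, 22036 in WT + lubiprostone and 16849 in WT control, and their brightest, Car4, had 6095 in CF + lubiprostone, 9621 in CF control, 2736 in WT + lubiprostone and 1753 in WT control. Of the 4 colon markers counted in CF control over WT control 2 were above 0 and 2 below, with a median log2 ratio of -0.04, so the sum followed Car4. Follicle associated epithelium and M cell markers, which overlie lymphoid follicles, summed to 6343 in CF + lubiprostone, 6022 in CF control, 4138 in WT + lubiprostone and 4092 in WT control, and all 6 were above 0 in the log2 ratio of CF control over WT control. In CF + lubiprostone over WT + lubiprostone 5 of 6 were above 0 and Spib was below. The sums of both lists, like Cldn2, were higher in both CF pools than in both WT pools, and their part in the Cldn2 values was not tested.

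Smooth muscle markers summed to 25952 in CF + lubiprostone, 37117 in CF control, 28345 in WT + lubiprostone and 25255 in WT control. All 6 were above 0 in the log2 ratio of CF control over WT control. Pancreas markers summed to 7789 in CF + lubiprostone, 32755 in CF control, 2784 in WT + lubiprostone and 26713 in WT control, so that the control pools held more of them than the treated pools. Stomach markers summed to 11610 (11609.6) in CF + lubiprostone, 7681 in CF control, 25489 in WT + lubiprostone and 11863 in WT control. Of the 4 stomach markers counted in CF control over WT control 3 were above 0, with a median log2 ratio of 0.57, opposite to the sum, in which Gkn3 is the brightest gene. Endothelial markers summed to 2739 in CF + lubiprostone, 2504 in CF control, 2282 in WT + lubiprostone and 2740 (2739.7) in WT control. None of the 4 mesothelium markers was kept. The 2 brightest genes behind each sum were Krt8 and Krt20 for epithelium, Fabp1 and Apoa1 for villus enterocytes, Olfm4 and Mki67 for crypts, Car4 and Slc26a3 for colon, Gkn3 and Tff1 for stomach, Anxa5 and Ccl9 for M cells, Emcn and Pecam1 for endothelium, Acta2 and Actg2 for smooth muscle and Ctrb1 and Cela2a for pancreas.

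**Figure D4:**
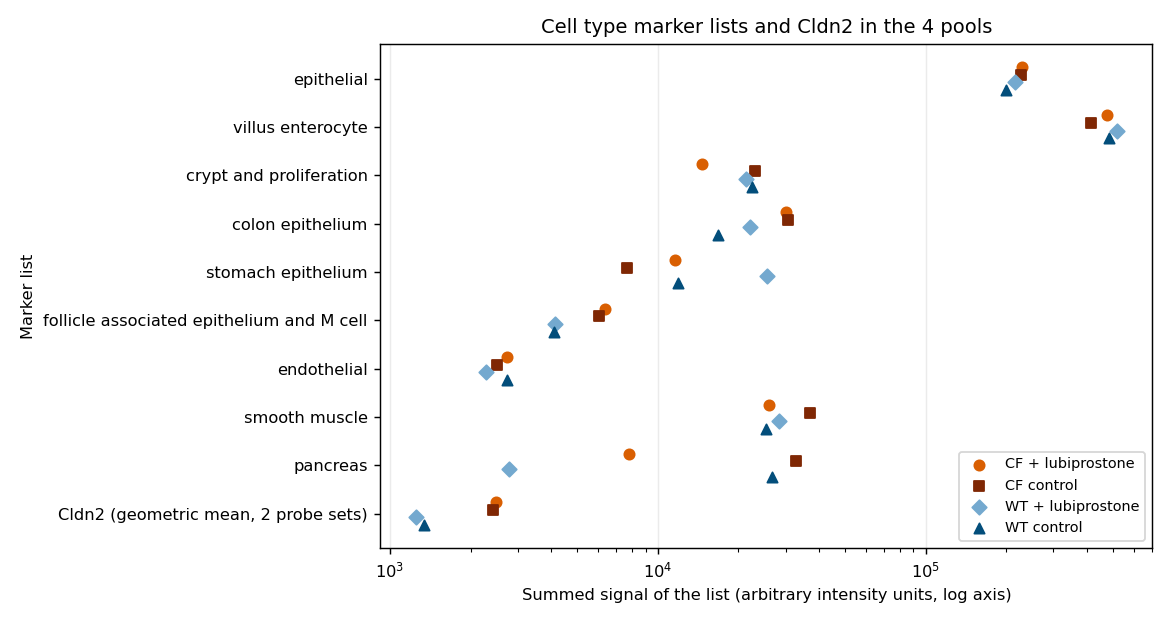
Summed signals of the cell type marker lists, with Cldn2 as its geometric mean signal in the bottom row (arbitrary intensity units, log axis), 1 point for each pool. The sums of the colon epithelium list (which follow Car4) and of the M cell list are higher in both CF pools, as is Cldn2 (2498 in CF + lubiprostone, 2436 in CF control, 1247 in WT + lubiprostone and 1346 in WT control), while the pancreas list is low in both treated pools.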

How the data were processed

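Total RNA of the entire small intestine was pooled by group and each of 4 pools was hybridized to 1 Affymetrix Mouse 430 2.0 array. The deposited values are signal intensities on a linear scale, made by the authors with GCOS (the MAS5 algorithm, per the labels) and scaled by array. Versions were not given in the sources used here. Mean signals without the top and bottom 2 percent were 500.0 on each array. The table holds no detection calls.

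Symbols came from the platform annotation, with list names matched to it by symbol or gene identifier, and it gave 34958 of 45101 probe sets 1 symbol. Of these, 21756 reached the median of 1 or more arrays and were kept. Folds are ratios of signals averaged on the log2 scale per gene, counted at 2-fold, at the study's 3-fold and at 1.5-fold for bright genes. Gene and promoter positions are from RefSeq (GRCm38.p6). Python 3.11.15, numpy 2.4.6, pandas 2.3.3 and matplotlib 3.10.9 were used, and the steps were tested on simulated data.

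The members and gene lists were chosen with earlier results of these data known. Named genes were all members, the brightest of each junction list and those called 2-fold, the 2 brightest of each marker list, and the 3 nearest patterns of the 3 members with the widest range. Cldn22 and Cldn34c1 were named outside this rule. Cdx2, Xist, Eif2s3y and Cftr were added after their values were seen. Sums of marker lists add every kept probe set, so a gene with several is counted several times. Alternatives were same-median scaling, quantile normalization, leaving out the filter, setting it to the 75th percentile, linear averaging, the brightest probe set and dim signals set to the median.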

Additional observations from a re-analysis of the deposited data

Results flagged for a closer look

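Cldn15 stood on opposite sides in the genotype comparison with and without lubiprostone. Its log2 ratio, from 1 probe set, was -0.40 for CF + lubiprostone over WT + lubiprostone and 0.16 for CF control over WT control. The second lay near the spread between probe sets of bright genes (0.15). Over the settings tried it ran from 0.05 to 0.34, and the first from -0.40 to -0.37. With 1 pool per group the difference between these ratios was not tested. Groups of 1 array could not be searched for samples that stand apart.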

How the results depend on the processing

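The 4 ratios of each of the 9 measured members were recomputed in 7 other settings, 252 values in all. Of these, 230 stayed within the spread between probe sets and 22 moved by more. Many could not move. All kept member probe sets lay above the 75th percentile, so the filter set there and dim signals set to the median each left all 36 values unchanged. Leaving out the filter could alter F11r only, and the choice of averaging cannot alter a member with 1 kept probe set. The only ratio that had passed 2-fold, Cldn2 in CF + lubiprostone over WT + lubiprostone, kept its sign. With the arrays scaled to the same median the ratios of CF control over WT control were higher by 0.18 for every gene, so that the median of all genes was 0.16, the members' median was 0.28 and 1 member (Cldn2, log2 ratio 1.03) passed 2-fold. Positions relative to the median of all genes did not move. Ratios of CF + lubiprostone over CF control were lower by 0.13 in that setting. With quantile normalization Cldn7 was at -0.05 in CF control over WT control. With no filter on low signals 1 member, the dim Cldn8, passed 2-fold in CF control over WT control. At 1.5-fold in place of 2-fold, 1 member was counted in CF control over WT control, while 2 were counted in CF + lubiprostone over WT + lubiprostone, and at 3-fold 0 in the second. Cldn2 lay between 0.83 and 1.03 in CF control over WT control, and its range was 1.003 to 1.21 for CF + lubiprostone over WT + lubiprostone over all settings, and Cldn15 between -0.70 and -0.48 in CF + lubiprostone over CF control. No paired analysis was possible because each group is 1 array, and for the same reason no array could be left out. Number of arrays limits the precision, and members near the array's median, here Cldn8, have no usable ratio.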
